A study of Mus musculus with 32 samples.

Results

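The NR4A nuclear receptors Nr4a1, Nr4a2 and Nr4a3 were taken by gene symbol from the tables of read counts of 2 mouse cell lines, AML12 and HL-1. Each table listed 3 of 3 members, among 27843 genes in AML12 and 55414 in HL-1. The filter on low counts kept 2 members in AML12, Nr4a1 and Nr4a2, among 14114 genes, and 3 in HL-1, among 14450 genes. Among the treatment comparisons the lowest adjusted p was that of Nr4a2 in HL-1 cells at 28 h, which had 14.3 ± 1.68 CPM in CM cells and 25.5 ± 0.902 CPM in control cells (SD, n = 4 each). CPM is a gene's read count per M (mega) reads of its library, with the library's total corrected by TMM.

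NR4A receptors are transcription factors of the nuclear receptor superfamily whose ligand pocket is filled by bulky side chains, so that their activity follows mainly how much receptor is made. Their genes are immediate early genes, switched on quickly and briefly by cyclic AMP, calcium, growth factors and stress, in part through the factor CREB at cyclic AMP response elements. In mouse liver they act on genes of glucose production, and in heart and muscle cells they have been studied in hypertrophy, survival and fuel use.

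The series holds 32 RNA-seq libraries of total RNA in 8 groups of 4. AML12, a mouse hepatocyte line, was sampled with the treatment that the labels call DEX and as control at 17 h, and likewise at 25 h. HL-1, a mouse cardiomyocyte line, was grown in medium from AML12 cultures that had been synchronized with DEX (CM) or had not (control), and was sampled at 16 h and at 28 h. Both are single established lines. The labels do not say whether replicates are separate cultures, so p-values measure only the spread between these libraries, which may be technical. Whether the libraries of compared groups overlap is given per gene, and the share of all genes without overlap was not counted. In bulk RNA, fewer cells of a type and less RNA per cell cannot be told apart.

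Libraries held 15.0 to 17.5 mega reads (M) in AML12, and those of HL-1 held 15.7 to 19.3 M. The CM libraries were deeper, at 18.2 ± 0.753 M in CM and 16.6 ± 1.00 M in control libraries at 28 h, and 18.6 ± 0.606 M in CM and 16.3 ± 0.722 M in control libraries at 16 h (SD, n = 4 each). Over 48 pairs of libraries of one group, chi-square per degree of freedom ran from 2.06 to 18.1, so no library was a copy of another. Replicate 2 of AML12 DEX at 17 h (13.6 to 18.1 with its group, against 2.41 to 4.00 among the others), replicate 4 of AML12 DEX at 25 h (3.90 to 5.06, against 2.31 to 3.69) and replicate 3 of HL-1 control at 16 h (8.05 to 16.6, against 2.73 to 5.58) stood apart. In HL-1 CM at 28 h, replicate 4 (5.20 to 9.74, against 3.39 to 7.02) and replicate 2 (5.66 to 9.74, against 3.39 to 7.03) also differed more from their group, within ranges that overlapped. In AML12 the hepatocyte genes Hnf4a and Apob averaged 205 and 154 CPM, while the bile duct keratin Krt19 had 1699 CPM. The other hepatocyte markers were low, with Alb at 1.43 CPM, Serpina1a at 1.42, Ttr at 1.38, Apoa1 at 1.08, Tat at 0.527 and Cps1 at 0.0453. In HL-1 the cardiomyocyte genes Gja1, Des and Tnnt2 averaged 466, 524 and 34.5 CPM, while the fibroblast collagen Col3a1 had 1454 CPM. The other cardiomyocyte markers were near 0, with Actc1 at 0.0171 CPM, Nppa at 0.0170, Myh6 at 0.0138, Myl2 at 0.00665 and Myl7 at 0.

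The 3 genes lie on different chromosomes, and the annotation places no other gene over any of them. In GENCODE M21 on GRCm38, Nr4a1 (ENSMUSG00000023034) spans chr15:101254269-101274795 on the plus strand, Nr4a2 (ENSMUSG00000026826) chr2:57106830-57124003 on the minus strand and Nr4a3 (ENSMUSG00000028341) chr4:48045153-48086447 on the plus strand. Their exons together cover 3509 bp in Nr4a1, 4059 bp in Nr4a2 and 5987 bp in Nr4a3.

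The sequence before each start is shown because it is where the known CREB input to these genes would sit. RefSeq promoters (GRCm38.p6) were searched for 250 bases before the start, on both strands, and 3 of 3 members matched a promoter. Capitals mark the core TGACG of the cyclic AMP response element, or its reverse complement CGTCA, and each window held 4 cores. Nr4a1 is shown from chr15:101266596-101266845, inside the span of the gene but in no M21 exon, and Nr4a2 from chr2:57124004-57124253, read on the minus strand. For Nr4a3 only the 98 bases at chr4:48045055-48045152 are shown, with 3 cores, since M21 places exon sequence over the remaining 152 bases.
Nr4a1: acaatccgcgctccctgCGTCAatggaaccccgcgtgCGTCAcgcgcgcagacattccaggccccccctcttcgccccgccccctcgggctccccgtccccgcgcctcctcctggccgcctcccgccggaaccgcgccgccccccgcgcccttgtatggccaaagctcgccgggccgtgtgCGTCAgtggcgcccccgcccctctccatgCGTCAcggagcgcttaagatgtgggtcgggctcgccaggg
Nr4a2: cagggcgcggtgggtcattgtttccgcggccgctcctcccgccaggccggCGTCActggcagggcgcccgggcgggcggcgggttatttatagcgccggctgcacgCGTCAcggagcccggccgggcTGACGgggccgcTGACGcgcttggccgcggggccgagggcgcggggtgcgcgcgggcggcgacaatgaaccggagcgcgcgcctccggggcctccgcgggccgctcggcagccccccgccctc
Nr4a3: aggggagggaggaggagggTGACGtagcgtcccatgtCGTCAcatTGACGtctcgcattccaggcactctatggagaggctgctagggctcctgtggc

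Cores stood 233, 213, 69 and 40 bases before the start in Nr4a1, and 200, 144, 123 and 111 bases before it in Nr4a2. In Nr4a3 they stood 231, 213, 205 and 147 bases before the start. Among 32851 promoter windows of this length, 5836 held at least 1 core, which is 17.8%, and 45 held 4 or more, which is 0.137%. The windows were rich in G and C, at 74.4% in Nr4a1, 80.0% in Nr4a2 and 63.6% in Nr4a3. The form TGCGTCA, which overlaps the core, occurred 4 times in Nr4a1 and 0 times in Nr4a2 and Nr4a3, while 1.75% of all windows held it. The full palindrome TGACGTCA occurred in none of the 3 windows and in 1.55% of all. The NBRE element AAAGGTCA, which NR4A monomers bind, was also in none of them and in 1.34% of all. The CArG box of serum response factor was in none of them and in 1.47% of all, and TATAAA occurred once, in Nr4a2, against 12.4% of all. These matches describe letters in a window and say nothing of binding.

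**Figure D1:**
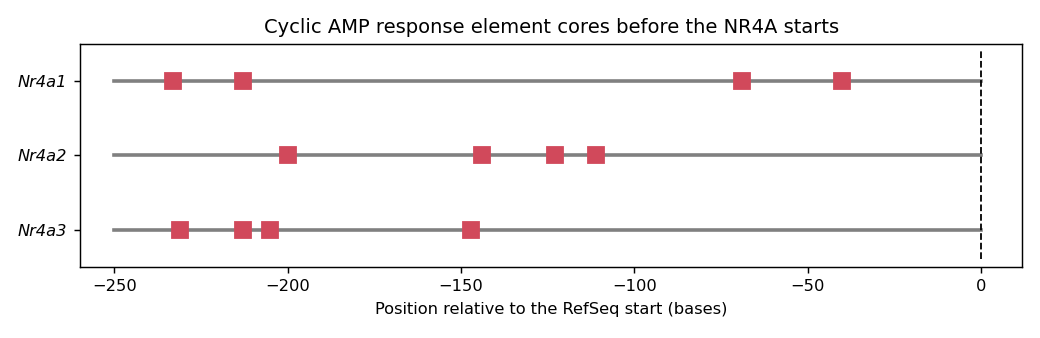
Positions of the cyclic AMP response element core (squares) in the 250 bases before the RefSeq start of each NR4A gene (horizontal axis, bases relative to the start, which is at the dashed line). Each gene has 4 cores, and in Nr4a1 a pair of them lies 69 and 40 bases before the start.

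Levels were compared between genes per kb of exon, since Nr4a3 is longer than the other members. In HL-1 the 3 receptors together had 8.32 ± 0.705 CPM per kb in CM cells at 28 h and 12.1 ± 0.159 in control cells. At 16 h their sum was 6.83 ± 0.251 CPM per kb in CM cells and 8.08 ± 0.838 in control cells (SD, n = 4 each). Nr4a2 made up 42.4 ± 3.19% of the sum in CM cells at 28 h and 51.7 ± 1.80% in control cells at 28 h. Its share at 16 h was 51.5 ± 2.72% in CM cells and 53.3 ± 3.84% in control cells. Nr4a1 held 54.2 ± 2.46% in CM cells at 28 h and 44.1 ± 2.08% in control cells at 28 h, and Nr4a3 held between 2.27% and 4.24% in the 4 groups. Which of Nr4a1 and Nr4a2 is the higher in HL-1 control cells, and in CM cells at 16 h, depends on the length used. At 16 h control cells had 3.62 CPM per kb of Nr4a1 and 4.29 of Nr4a2 over all exons, but 4.97 and 4.88 with the longest transcript as length. CM cells at 16 h had 3.15 of Nr4a1 and 3.51 of Nr4a2 over all exons, but 4.33 and 4.00 with the longest transcript.

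In AML12 the order was Nr4a1, Nr4a2 and Nr4a3 in each of the 4 groups, with either length. Nr4a1 made up 60.7% to 69.0% of the sum per kb and Nr4a2 30.9% to 39.3% as group means. Nr4a3 had 2 reads in all over the 16 libraries, 1 in replicate 4 of DEX at 17 h and 1 in replicate 1 of control at 17 h. That is 0.00762 CPM over the line, with an exact 95% Poisson interval of 0.000922 to 0.0275 CPM, and 3 counts in 1 library would be 0.171 to 0.202 CPM. Intervals and this limit cover counting error only. Nr4a3 was therefore not tested in AML12, and the depth does not show whether it differed between groups. Set among the nuclear receptors listed in each table by mean CPM per kb, Nr4a1, Nr4a2 and Nr4a3 ranked 20, 22 and 41 of 42 in AML12. In HL-1 Nr4a2, Nr4a1 and Nr4a3 ranked 16, 17 and 28 of 49.

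**Figure D2:**
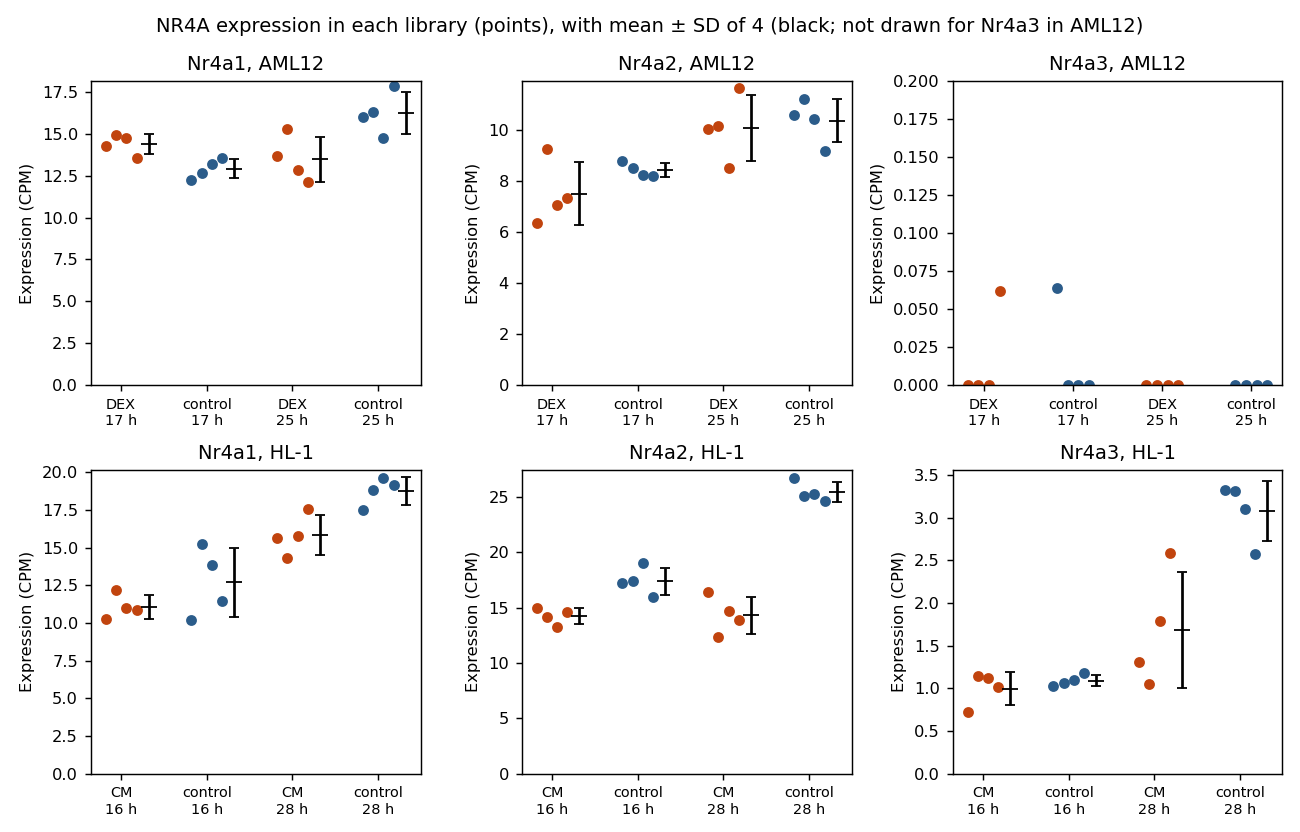
Expression of each NR4A gene in CPM (vertical axes, from 0) in the 4 libraries of each group, with mean ± SD in black except for Nr4a3 in AML12. In HL-1 the 4 CM libraries at 28 h have 12.3 to 16.4 CPM of Nr4a2, below the 24.7 to 26.8 CPM of the 4 controls, and Nr4a3 in AML12 is at 0 in 14 of 16 libraries.

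In HL-1 cells at 28 h, Nr4a2 and Nr4a3 were lower in CM than in control, and Nr4a1 did not pass the test. Nr4a2, known for its part in the upkeep of dopamine neurons and induced in many cell types by cyclic AMP, had 16.4, 12.3, 14.7 and 13.9 CPM in CM libraries, against 26.8, 25.1, 25.3 and 24.7 CPM in control libraries. The groups did not overlap, and the highest CM library was well under the lowest control. The log2 fold change was -0.83 ± 0.08 (SE, n = 4 each, adjusted p = 1.15e-07 by edgeR's quasi-likelihood test with Benjamini-Hochberg adjustment over 14450 genes). By p it ranked 11 among those genes. Without replicate 4 of CM it was -0.82 (adjusted p = 5.95e-07), and without replicate 2 of CM it was -0.77 (adjusted p = 8.88e-07). Of all genes tested, 1.92% were called at an adjusted p under 0.05 in this comparison, 0.706% higher and 1.22% lower in CM, and 2 of the 3 NR4A genes were called, both lower. The summed level of 4 fibroblast markers, none at 0, was also lower, at 1841 to 2101 CPM in CM libraries and 2191 to 2368 CPM in control libraries, with 0 of the 4 called higher and 2 lower. The 8 hepatocyte markers, 4 of them at 0 in HL-1, summed to 9.06 to 10.4 CPM in CM libraries and 5.01 to 8.38 CPM in control libraries, and the 1 that was tested was higher. The part of these markers in the result was not tested.

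Nr4a3, the least abundant member, had 1.31, 1.05, 1.79 and 2.59 CPM in CM libraries at 28 h, against 3.32, 3.31, 3.11 and 2.58 CPM in control libraries. These are 23, 20, 32 and 48 reads in CM libraries and 54, 53, 56 and 41 reads in control libraries. Replicate 4 of CM reached the lowest control library, and the other CM libraries lay below all controls. Its log2 fold change was -0.87 ± 0.21 (SE, adjusted p = 0.0280, edgeR). Leaving out a single library ended this call in 6 of 8 cases, namely replicates 1, 2 and 3 of CM and replicates 1, 2 and 3 of control, with an adjusted p of up to 0.102, whereas without replicate 4 of CM the change was -1.16 with an adjusted p of 0.00252.

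Nr4a1, whose protein in mouse liver raises genes of glucose production, had 15.7, 14.3, 15.7 and 17.6 CPM in CM libraries at 28 h, against 17.5, 18.8, 19.6 and 19.1 CPM in control libraries. The highest CM library passed the lowest control, and the others were below it. The log2 fold change was -0.25 ± 0.09 (SE, adjusted p = 0.243, edgeR), with a 95% interval of -0.44 to -0.05.

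**Figure D3:**
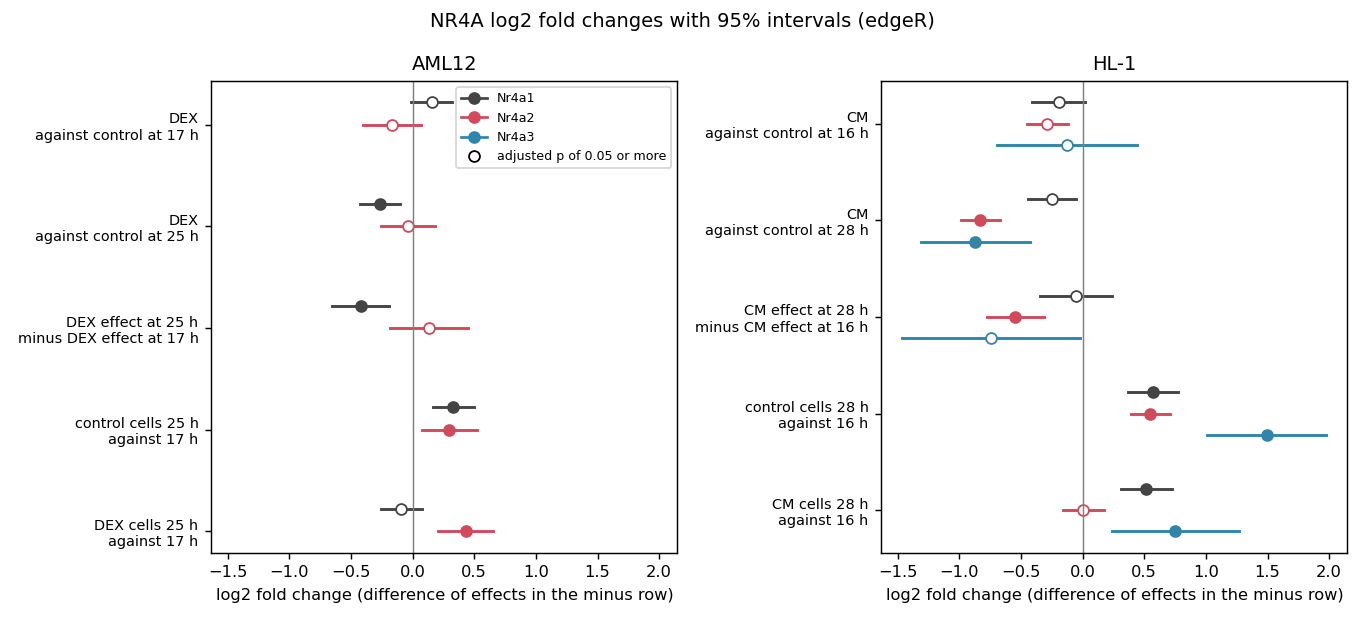
Log2 fold changes (horizontal axes) of the NR4A genes with 95% intervals from edgeR, in AML12 (left) and HL-1 (right), one row per comparison. Filled points have an adjusted p under 0.05, and the HL-1 row for CM at 28 h shows Nr4a2 at -0.83 and Nr4a3 at -0.87, with Nr4a1 at -0.25.

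At 16 h the CM and control cells lay closer together. Nr4a2 had 15.0, 14.2, 13.3 and 14.7 CPM in CM libraries, against 17.2, 17.4, 19.0 and 16.0 CPM in control libraries. All CM libraries were below all controls, but the log2 fold change of -0.29 ± 0.08 (SE) had an adjusted p of 0.0643 by edgeR. With DESeq2 its adjusted p was 0.0318, and without replicate 3 of control it was 0.162 by edgeR. Nr4a1 had 10.3, 12.2, 11.0 and 10.8 CPM in CM libraries and 10.2, 15.2, 13.9 and 11.5 CPM in control libraries, and Nr4a3 had 0.722, 1.14, 1.12 and 1.01 CPM in CM libraries and 1.02, 1.06, 1.10 and 1.18 CPM in control libraries. Both overlapped between the groups, with log2 fold changes of -0.19 ± 0.10 (adjusted p = 0.523, edgeR) for Nr4a1 and -0.13 ± 0.28 (adjusted p = 0.941, 95% interval -0.70 to 0.44) for Nr4a3. In this comparison 0 of 3 members and 2.03% of all genes were called by edgeR, 0.830% higher and 1.20% lower, while 1 member, Nr4a2, had an unadjusted p under 0.05, and DESeq2 called that 1. The fibroblast markers summed to 1124 to 1269 CPM in CM libraries at 16 h and 1335 to 1503 CPM in control libraries, with 0 of the 4 called higher and 2 lower. The 5 immune markers summed to 2.45 to 2.72 CPM in CM and 1.38 to 1.76 CPM in control libraries. Of these Cd68 averaged 2.23 CPM over HL-1 and the others 0.0104 CPM or less, and the 1 that was tested was not called. The part of these markers was not tested either.

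The effect of CM on Nr4a2 differed between the times. The log2 fold change at 28 h minus that at 16 h was -0.55 ± 0.11 (SE, adjusted p = 0.0215, edgeR), and 40 genes, or 0.277% of those tested, were called for this difference, 0.104% higher and 0.173% lower. The call was lost in 6 of 16 fits that left out a library, namely replicates 1, 2 and 4 of CM at 16 h, replicates 2 and 4 of control at 16 h and replicate 1 of control at 28 h, with an adjusted p of up to 0.0888, while the difference kept its sign in each, at -0.62 to -0.48. For Nr4a3 the difference was -0.74 ± 0.35 (95% interval -1.46 to -0.02, unadjusted p = 0.0448, adjusted p = 0.724, edgeR). For Nr4a1 it was -0.05 ± 0.14 (adjusted p = 0.986, 95% interval -0.34 to 0.24). Neither of these passed the test after adjustment.

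Between the times, Nr4a2 was higher at 28 h in control cells, while CM cells had nearly the same level at both. In control cells the change at 28 h against 16 h was 0.55 ± 0.08 on the log2 scale (SE, adjusted p = 7.55e-07, edgeR), with all 4 libraries at 28 h above all 4 at 16 h. In CM cells it was 0.00 ± 0.08 (adjusted p = 0.967), with a 95% interval of -0.16 to 0.17. Nr4a1 rose in both media, by 0.57 ± 0.10 in control cells (adjusted p = 1.81e-05) and by 0.52 ± 0.10 in CM cells (adjusted p = 6.36e-05), and within each medium all 4 libraries at 28 h were above all 4 at 16 h. Nr4a3 rose by 1.49 ± 0.23 in control cells (adjusted p = 4.56e-06) and by 0.75 ± 0.25 in CM cells (adjusted p = 0.0107). Without replicate 4 of CM at 28 h the rise in CM cells was 0.46 with an adjusted p of 0.105. Changes with time were common in these cells, with 62.8% of all genes called in control cells, 31.5% higher and 31.3% lower at 28 h, and 65.4% in CM cells, 32.6% higher and 32.9% lower. Markers moved with time as well: 4 of 4 fibroblast and 2 of 2 tested bile duct markers were higher at 28 h in each medium. Of 3 tested cardiomyocyte markers, 2 were higher at 28 h in each medium, with 0 lower in control and 1 lower in CM cells. The bile duct markers summed to 293 to 349 CPM at 28 h and 104 to 123 CPM at 16 h in CM cells, and to 295 to 320 CPM at 28 h and 105 to 127 CPM at 16 h in control cells. Of the 4 bile duct markers, Krt19 and Sox9 averaged 119 and 96.5 CPM over HL-1, Krt7 had 0.0503 CPM and Epcam was at 0. The part of these markers in the NR4A changes was not tested. The CM and time comparisons share libraries, so their values are set side by side and are not independent.

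Ordered by mean CPM, the Nr4a2 groups ran from HL-1 control at 28 h through control at 16 h and CM at 28 h to CM at 16 h, and only the top group was clear of its neighbour. Nr4a1 and Nr4a3 ran from control at 28 h through CM at 28 h and control at 16 h to CM at 16 h, and each neighbouring pair overlapped in range.

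Ratios of the members within a library need no scaling to depth, and were added after the values were seen. Per library, log2 Nr4a2 over Nr4a1 counts averaged -0.15 ± 0.17 in CM cells at 28 h and 0.44 ± 0.12 in control cells (SD, n = 4 each), a difference of -0.59 with no overlap. An exact permutation test, two-sided, gave p = 0.0286 for it, the smallest that 4 against 4 libraries allow. After Benjamini-Hochberg adjustment over 16 ratio tests the p was 0.0914. An adjusted p under 0.05 would have needed most of the 16 ratios at that smallest p. The adjusted test could therefore hardly pass, and no conclusion is drawn from it. At 16 h the same ratio averaged 0.37 ± 0.15 in CM cells and 0.47 ± 0.23 in control cells, and the libraries overlapped. Nr4a3 over Nr4a2 averaged -3.17 ± 0.56 in CM cells at 28 h and -3.05 ± 0.14 in control cells (exact permutation p = 0.714, adjusted p = 0.879). In control cells Nr4a3 over Nr4a1 averaged -2.61 ± 0.21 at 28 h and -3.52 ± 0.27 at 16 h, again with no overlap and an adjusted p of 0.0914 by the same exact test.

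**Figure D4:**
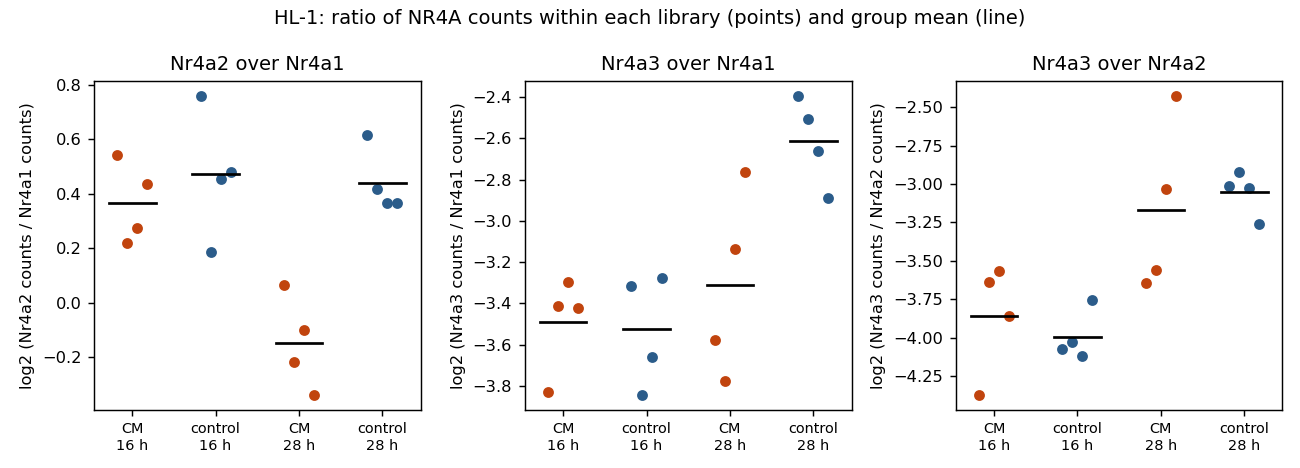
Log2 ratio of the counts of 2 NR4A genes (vertical axes) within each HL-1 library (points), with the group mean (line). The 4 CM libraries at 28 h lie below the 4 controls for Nr4a2 over Nr4a1, with means of -0.15 in CM and 0.44 in control, and overlap them for Nr4a3 over Nr4a2.

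In AML12 at 25 h Nr4a1 was lower in DEX than in control cells, and Nr4a2 did not pass the test. Nr4a1 had 13.7, 15.3, 12.8 and 12.1 CPM in DEX libraries at 25 h, against 16.0, 16.3, 14.7 and 17.9 CPM in control libraries. One DEX library lay above the lowest control, and the others lay below all controls. The log2 fold change was -0.27 ± 0.08 (SE, n = 4 each, adjusted p = 0.0256, edgeR over 14114 genes). Without replicate 4 of DEX it was -0.23 with an adjusted p of 0.0921, without replicate 3 of DEX the adjusted p was 0.0589, and without replicate 4 of control it was 0.0925. Nr4a2 had 10.0, 10.1, 8.50 and 11.6 CPM in DEX libraries and 10.6, 11.2, 10.4 and 9.19 CPM in control libraries at 25 h. These overlapped, with a log2 fold change of -0.04 ± 0.10 (adjusted p = 0.893, 95% interval -0.25 to 0.18). At 25 h 1 of the 2 tested members was called, against 11.7% of all genes, 6.79% higher and 4.96% lower in DEX. Of the markers, 2 of 7 tested for hepatocytes, 2 of 3 for cardiomyocytes and 1 of 3 for bile duct were higher in DEX at 25 h and 0 lower. The cardiomyocyte markers summed to 77.9 to 90.5 CPM in DEX libraries and 66.1 to 73.0 CPM in control libraries, and the bile duct markers to 2129 to 2230 CPM in DEX and 2237 to 2290 CPM in control libraries. Of the 8 cardiomyocyte markers 5 were listed in AML12, with line means of 55.0 CPM for Tnnt2, 18.7 for Gja1 and 2.43 for Des. Myh6 and Nppa were at 0.00762 and 0.00787 CPM. Of the 4 bile duct markers 3 were listed, without Epcam. The part of these markers was not tested.

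At 17 h neither was called, against 38.4% of all genes, 20.5% higher and 17.9% lower in DEX. Nr4a1 had 14.3, 14.9, 14.8 and 13.6 CPM in DEX libraries, against 12.2, 12.6, 13.2 and 13.5 CPM in control libraries. All DEX libraries were above all controls, by a narrow margin, and the log2 fold change was 0.15 ± 0.08 (SE, adjusted p = 0.136, edgeR). Nr4a2 had 6.34, 9.24, 7.07 and 7.34 CPM in DEX libraries, against 8.78, 8.50, 8.22 and 8.19 CPM in control libraries. Replicate 2 of DEX, the library that stood apart, was the highest of the 8 and the other 3 DEX libraries were the lowest. With that library it had a log2 fold change of -0.17 ± 0.11 (adjusted p = 0.256, edgeR), and without it -0.29 (adjusted p = 0.0363). Both unadjusted p-values with all libraries, 0.0663 and 0.148, were also above 0.05, and DESeq2 called neither. At 17 h the hepatocyte markers summed to 281 to 294 CPM in DEX libraries and 382 to 419 CPM in control libraries. Of the 7 hepatocyte markers tested, 3 were higher and 3 lower in DEX. The bile duct markers summed to 2360 to 2579 CPM in DEX and 1760 to 1960 CPM in control libraries. Of the 3 bile duct markers tested, 2 were higher and 0 lower in DEX. The endothelial markers summed to 1.79 to 2.91 CPM in DEX and 2.97 to 3.79 CPM in control libraries. Of these Cdh5 had a line mean of 2.48 CPM and the others 0.180 CPM or less, and the 1 that was tested was lower. The part of these markers in these values was not tested.

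The effect of DEX on Nr4a1 differed between the times, with a log2 fold change at 25 h minus that at 17 h of -0.42 ± 0.11 (SE, adjusted p = 0.0105, edgeR), and 16.2% of all genes were called for this difference, 7.91% higher and 8.27% lower. For Nr4a2 the difference was 0.13 ± 0.15 (adjusted p = 0.636). With time, control cells gained Nr4a1 at 25 h against 17 h by 0.33 ± 0.08 (adjusted p = 0.00156) and Nr4a2 by 0.30 ± 0.11 (adjusted p = 0.0277), with all libraries at 25 h above all at 17 h for both. That of Nr4a2 was lost with total counts in place of TMM and in 5 of 8 fits without a library, namely replicates 1, 2 and 3 at 25 h and replicates 3 and 4 at 17 h, with an adjusted p of up to 0.0835. DEX cells at 25 h gained Nr4a2 by 0.43 ± 0.11 (adjusted p = 0.00181), while their Nr4a1 changed by -0.09 ± 0.08 (adjusted p = 0.344). Genes called with time made up 43.5% of all in control cells, 22.1% higher and 21.4% lower at 25 h, and 56.0% in DEX cells, 27.8% higher and 28.2% lower. Of 3 tested bile duct markers, 0 were higher and 2 lower at 25 h in DEX cells, and 2 were higher and 0 lower in control cells. Their part in these changes was not tested. By mean CPM, Nr4a1 ran from control at 25 h through DEX at 17 h and DEX at 25 h to control at 17 h, and Nr4a2 from control at 25 h through DEX at 25 h and control at 17 h to DEX at 17 h, with each neighbouring pair overlapping.

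The other genes of these pathways were taken from 6 lists with 165 genes, 19 of them in more than 1 list. Lists are described by counts and medians only, and each count is out of the listed genes that passed the filter on low counts. In HL-1 these were 20 of 37 reported targets, 26 of 46 other nuclear receptors and 15 of 21 genes that respond to cyclic AMP. In AML12 they were 20, 28 and 17 in the same order. In HL-1 at 28 h, where 0.706% of all genes were higher and 1.22% lower in CM, each list had between 0 and 3 calls. Of 29 tested immediate early genes other than NR4A, 1 was higher and 1 lower in CM, with a median log2 fold change of -0.04. Egr1, a zinc finger factor of the early growth response, rose by 0.24 ± 0.05 (51.0 CPM in CM cells, 43.3 in control cells, adjusted p = 0.0175, edgeR). Dusp6, a phosphatase of ERK, fell by 0.21 ± 0.05 (102 CPM in CM cells, 119 in control cells, adjusted p = 0.0208). Of 15 genes known to respond to cyclic AMP through CREB, 1 was lower, the growth factor gene Areg (log2 fold change -0.39 ± 0.09, adjusted p = 0.0148), and Gem, a small GTP-binding protein, had -0.24 ± 0.07 (adjusted p = 0.0908), with a median of -0.07 for the list.

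Upstream of the receptors, 0 of 27 regulators of CREB and MEF2 were higher and 1 was lower in CM at 28 h. The calcineurin subunit Ppp3ca was lower, at a log2 fold change of -0.14 ± 0.03 (adjusted p = 0.0206, edgeR), and the phosphodiesterase Pde4b had -0.16 ± 0.06 (adjusted p = 0.209). By edgeR 0 of 19 partners and cofactors were called and 1 had an unadjusted p under 0.05, and those nearest were Mdm2 at -0.11 ± 0.04 (adjusted p = 0.146) and Vhl at 0.09 ± 0.05 (adjusted p = 0.477). Of 20 genes reported elsewhere as NR4A targets, the adhesion molecule Vcam1 (-0.34 ± 0.05, adjusted p = 0.000363) and the matrix protein Spp1 (-0.22 ± 0.04, adjusted p = 0.00436) were lower, and the pyruvate dehydrogenase kinase Pdk4 was higher (0.24 ± 0.05, adjusted p = 0.0147). Of 26 other nuclear receptors, the clock repressor Nr1d2 was lower (-0.28 ± 0.05, adjusted p = 0.00239) and the thyroid hormone receptor Thra higher (0.22 ± 0.05, adjusted p = 0.0304).

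**Figure D5:**
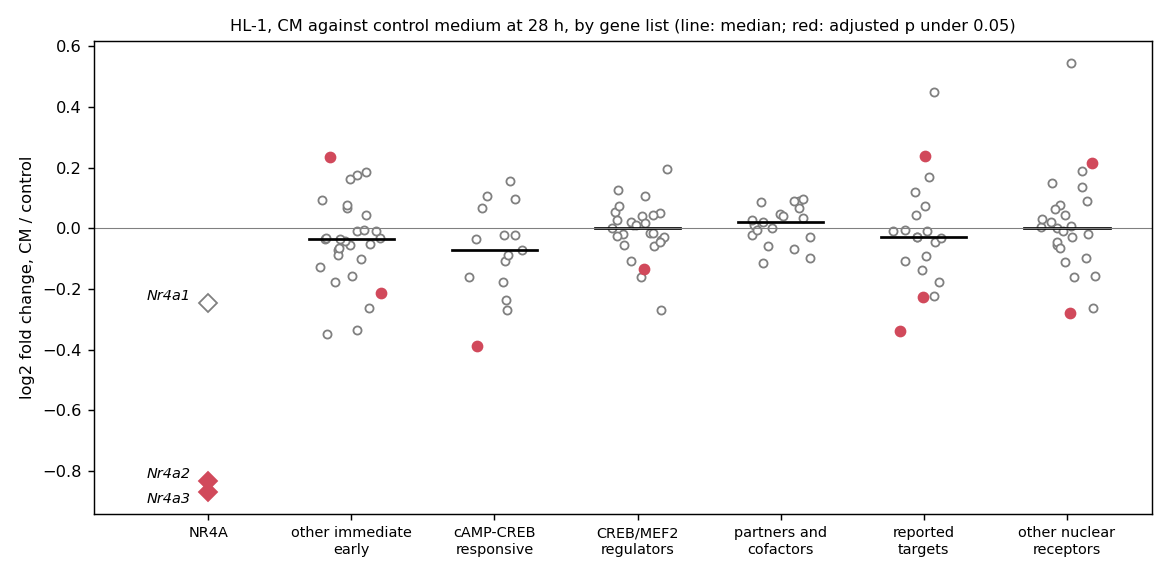
Log2 fold changes of CM against control at 28 h in HL-1 (vertical axis) for the NR4A genes (diamonds) and 6 gene lists (circles), with list medians as lines and called genes in red. Nr4a2 at -0.83 and Nr4a3 at -0.87 lie below every tested gene of the lists, whose called members run from -0.39 for Areg to 0.24 for Pdk4 and Egr1.

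At 16 h each list had between 0 and 2 calls, where 0.830% of all genes were higher and 1.20% lower in CM. Egr1 rose by 0.26 ± 0.05 in CM cells (adjusted p = 0.00591, edgeR), and Egr2 had 0.31 ± 0.08 (adjusted p = 0.0585). Per1, a clock gene with cyclic AMP response elements, rose by 0.41 ± 0.09 (adjusted p = 0.0110), and Nfil3, a clock-linked bZIP repressor, had -0.26 ± 0.07 (adjusted p = 0.0622). Among targets Spp1 was lower (-0.38 ± 0.04, adjusted p = 5.01e-06) and Pdk4 higher (0.28 ± 0.06, adjusted p = 0.00583). Nr1d2 was higher by 0.41 ± 0.05 (adjusted p = 3.37e-06) and Nr2f2 had 0.18 ± 0.06 (adjusted p = 0.140). By edgeR 0 of 27 regulators and 0 of 19 partners and cofactors were called, and 1 of each list had an unadjusted p under 0.05. The nearest were Hdac7 (0.17 ± 0.08, adjusted p = 0.400), Prkar1a (-0.06 ± 0.03, adjusted p = 0.519), Bcl2 (-0.15 ± 0.06, adjusted p = 0.274) and Ncoa1 (0.11 ± 0.06, adjusted p = 0.537).

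Over time in HL-1 control cells, 31.5% of all genes were higher and 31.3% lower at 28 h. Of 15 genes that respond to cyclic AMP, 12 were higher and 0 lower at 28 h than at 16 h, with a median log2 fold change of 0.45, against 0.00 for all genes tested. Nfil3 rose by 1.26 ± 0.07 (41.7 CPM at 28 h, 17.4 at 16 h, adjusted p = 1.05e-14, edgeR), Gem by 0.88 ± 0.07 and the kinase gene Sik1 by 0.64 ± 0.08. Of 29 immediate early genes, 16 were higher and 5 lower, with a median of 0.36, led by Ier3 at 2.55 ± 0.08. In CM cells 10 of 15 and 18 of 29 were higher, with 0 and 6 lower, where 32.6% of all genes were higher and 32.9% lower. In these cells Nfil3 had 41.1 CPM at 28 h and 14.6 CPM at 16 h, Gem rose by 0.84 ± 0.07 and Sik1 by 0.70 ± 0.07, while Nr4a2 was called in control cells only. The test of that difference is the one given above for CM at 28 h and 16 h, in which 0 of 15 and 0 of 29 of these genes were called by edgeR and 3 and 2 had an unadjusted p under 0.05.

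In AML12 at 17 h, 20.5% of all genes were higher and 17.9% lower in DEX, and each list had calls in both directions. Of 26 immediate early genes 11 were higher and 8 lower in DEX, with the phosphatase Dusp1 higher by 1.18 ± 0.06 (67.9 CPM in DEX cells, 29.9 in control cells, adjusted p = 1.09e-13, edgeR) and Ier3 lower, at -1.12 ± 0.06 (adjusted p = 3.95e-13). Of 17 genes that respond to cyclic AMP 7 were higher and 4 lower, and Per1 rose by 1.65 ± 0.07 (adjusted p = 2.81e-15). Of 27 regulators 7 were higher and 7 lower, with the kinase genes Camk2d at 0.87 ± 0.04 and Prkacb at 0.42 ± 0.04. Of 21 partners 2 were higher and 5 lower, among them Pias3 at 0.40 ± 0.07 and the glucocorticoid receptor Nr3c1 at -0.27 ± 0.04. Of 20 targets 6 were higher and 2 lower, Vcam1 at -1.29 ± 0.06 and Spp1 at -0.75 ± 0.05. Of 28 other nuclear receptors 3 were higher and 10 lower, with the bile acid receptor Nr1h4 at 2.01 ± 0.07 and Nr1d2 at -1.63 ± 0.07.

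At 25 h, where 6.79% of all genes were higher and 4.96% lower in DEX, 11 of 26 other immediate early genes were lower and 0 higher, with a median of -0.17, against 0.00 for all genes tested. Fosl2, a partner of JUN proteins, fell by 0.37 ± 0.04 (180 CPM in DEX cells, 232 in control cells, adjusted p = 2.32e-06, edgeR). Egr1 fell by 0.60 ± 0.10 (adjusted p = 0.000226). Of 17 genes that respond to cyclic AMP 1 was higher and 5 lower, with Vgf at -0.68 ± 0.10 and Nfil3 at -0.35 ± 0.06. Of 27 regulators 1 was higher and 2 lower, Srf at -0.26 ± 0.05 and Crtc3 at -0.25 ± 0.06. Of 21 partners Nr3c1 was lower at -0.12 ± 0.04, and Bcl2 had -0.15 ± 0.05 (adjusted p = 0.0850). Of 20 targets 7 were higher and 3 lower, with Birc5, an inhibitor of cell death, at 0.78 ± 0.08 and Spp1 at -0.24 ± 0.05. Of 28 other nuclear receptors 3 were higher and 3 lower, with the clock repressor Nr1d1 at 0.69 ± 0.10. For the effect of DEX at 25 h minus that at 17 h, where 7.91% of all genes were higher and 8.27% lower, 5 of the 26 immediate early genes were higher and 14 lower, with a median of -0.32. With time, 15 of these 26 were higher and 5 lower at 25 h in control cells, with a median of 0.26, where 22.1% of all genes were higher and 21.4% lower. In DEX cells 11 were higher and 9 lower, with a median of -0.03, where 27.8% of all genes were higher and 28.2% lower.

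Genes whose pattern was most like that of a member were named by Pearson's r of log2 CPM over the 16 libraries of a line as a description, and these libraries share their groups. For Nr4a2 in HL-1 they were Rcan1 (0.934), Npy1r (0.897), Usp43 (0.884), Grem1 (0.878) and Dcn (0.869). Rcan1, a calcineurin inhibitor whose gene is itself induced by calcium signals, had 21.9 ± 1.03 CPM in CM cells at 28 h and 32.0 ± 1.11 in control cells, and 20.2 ± 1.97 in CM cells at 16 h and 23.2 ± 1.82 in control cells (SD, n = 4 each). Rcan1 had a log2 fold change of -0.55 ± 0.07 at 28 h and -0.20 ± 0.07 at 16 h (SE). Genes named here were chosen for likeness over the same libraries, so their values give no separate support for a shared pattern. Npy1r, a neuropeptide Y receptor, had 1.11 ± 0.214 CPM in CM cells at 28 h and 3.16 ± 0.275 in control cells. Dcn, a fibroblast proteoglycan, was lower in CM at both times, with 18.8 ± 0.729 CPM in CM cells and 39.2 ± 0.403 in control cells at 28 h, and 10.9 ± 0.805 in CM cells and 22.6 ± 0.331 in control cells at 16 h. Dcn is 1 of the 4 fibroblast markers given above.

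For Nr4a1 in HL-1 the nearest genes were Socs3 (0.957), Sh3pxd2a (0.947), Fosl1 (0.946), Lzts1 (0.943) and Flot2 (0.941). Socs3, a cytokine feedback inhibitor, had 87.4 ± 10.3 CPM in CM cells at 28 h and 114 ± 2.91 in control cells. For Nr4a3 they were Epdr1 (0.930), Has1 (0.927), Cyp4f40 (0.922), Trib1 (0.918) and Sfrp4 (0.909). Sfrp4, a secreted WNT binder, had 10.7 ± 1.47 CPM in CM cells at 28 h and 21.9 ± 3.21 in control cells. In AML12 they were Tut1 (0.878), Bcar1 (0.856), Mcrip1 (0.853), Slc25a22 (0.840) and Aatf (0.838) for Nr4a1, and Tnfsf13os (0.933), Zfp579 (0.924), Tnfrsf18 (0.913), Dpm1 (0.908) and Tnfsf12 (0.905) for Nr4a2. Tnfsf13os and Tnfsf12 may share reads with neighbouring genes if reads were counted without strand.

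The members were also compared with each other over the 16 libraries of a line. In HL-1 r was 0.633 between Nr4a1 and Nr4a2, 0.864 between Nr4a1 and Nr4a3 and 0.724 between Nr4a2 and Nr4a3. After the group means were taken out these became 0.199, 0.397 and 0.0162 in the same order. In AML12 r between Nr4a1 and Nr4a2 was 0.185, and -0.145 without group means. By deviations from group means, the nearest genes in HL-1 were Prkd2 (0.935), Faap100 (0.930), Slc38a10 (0.922), Plscr3 (0.915) and Piezo1 (0.901) for Nr4a1. For Nr4a2 they were Ism2 (0.817), E2f1 (0.780), Tmtc2 (0.776), Vav2 (0.775) and Fbxl20 (0.768), and for Nr4a3 Col5a3 (0.876), Helz2 (0.841), Iqsec1 (0.834), Fam174a (0.830) and Csnk1a1 (0.83). In AML12 they were P2rx4 (0.864), Sort1 (0.832), Tomm5 (0.827), Zfpl1 (0.804) and Sap30bp (0.794) for Nr4a1, and Cstf1 (0.882), Furin (0.866), Rfc1 (0.863), Ccna2 (0.859) and Arhgap6 (0.856) for Nr4a2.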

How the data were processed

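Read counts per gene, 1 column per library, were deposited by the authors as whole numbers without normalization. The submitters' processing notes name STAR, FastQC 0.11.8 and the builds mm10 and GRCm38. What program counted reads per gene, with which annotation and strand setting, was not given in the sources used here. Each count column was matched to a sample by name (0 unmapped). The HL-1 table heads its CM libraries DEX, and they were matched to CM through each sample's description. RNA was extracted with TRIzol and made into libraries with NEBNext Ultra II reagents, per the labels' protocols.

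Each line was fitted on its own with edgeR 4.0.16 in R 4.3.3: filterByExpr by group, TMM scaling, the quasi-likelihood test with 1 mean per group over 16 libraries, and Benjamini-Hochberg adjustment over all genes kept, with calls at 0.05. CPM values use TMM-scaled totals. Alternatives were RLE size factors, total counts, no filter on low counts, DESeq2 1.42.0, limma-voom 3.58.1, the replicate number as a block, the 8 compared libraries alone, and each library left out. The code was tested on simulated counts. The members and the lists were chosen with earlier results of these data known. Named are the members, genes of the lists (at least the 2 with the smallest p per list and treatment comparison) and the 5 genes most like each member, also by deviations from group means. A single gene covered by this rule is not reported here, and the others are. Likeness used log2 CPM with a prior count of 2.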

Additional observations from a re-analysis of the deposited data

Results flagged for a closer look

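In AML12, the effect of DEX on Nr4a1 differed between the times. The log2 fold change at 25 h minus that at 17 h was -0.42 (edgeR, adjusted p = 0.0105), with Nr4a1 at 13.5 ± 1.35 CPM in DEX cells and 16.2 ± 1.28 in control cells at 25 h, and at 14.4 ± 0.613 in DEX cells and 12.9 ± 0.570 in control cells at 17 h (SD, n = 4 each).

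In HL-1, the effect of CM on Nr4a2 differed between the times, by -0.55 on the log2 scale at 28 h minus 16 h (edgeR, adjusted p = 0.0215). The CM cells had 14.3 ± 1.68 CPM at 28 h and 14.3 ± 0.744 at 16 h, and the control cells 25.5 ± 0.902 at 28 h and 17.4 ± 1.23 at 16 h (SD, n = 4 each).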

How the results depend on the processing

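Nr4a2 in HL-1 at 28 h was called in 15 of 15 alternatives, with log2 fold changes of -0.90 to -0.77. No called NR4A result changed sign under any alternative run. With total counts only, Nr4a2 in AML12 control cells at 25 h against 17 h was 0.25 (adjusted p = 0.0583). With DESeq2, Nr4a2 in HL-1 with CM at 16 h was -0.29 (adjusted p = 0.0318). The genes called for the CM effect at 28 h minus 16 h in HL-1 were 97 without the filter on low counts and 68 with DESeq2, against 40. Leaving out each library in turn gave these ranges: Nr4a2 in AML12 control cells with time 0.26 to 0.36 (adjusted p up to 0.0835), Nr4a2 in AML12 with DEX at 17 h -0.29 to -0.10, Nr4a1 in AML12 with DEX at 25 h -0.35 to -0.23 (adjusted p up to 0.0925), and Nr4a2 for the CM effect at 28 h minus 16 h -0.62 to -0.48 (adjusted p up to 0.0888). In HL-1 with CM at 28 h it gave -1.16 to -0.69 for Nr4a3 (adjusted p up to 0.102) and 170 to 334 genes called, against 278, with 170 without replicate 3 of CM and 179 without replicate 1 of control. In CM cells with time it gave 0.46 to 0.93 for Nr4a3. The cause was not tested for any of these. Over 12 pairs of groups, deviations of same-numbered libraries correlated at -0.12 to 0.12, and those of differently numbered libraries at -0.23 to 0.20. Between AML12 DEX and control at 25 h these were 0.026 to 0.078 and -0.054 to 0.030. Between AML12 DEX at 17 h and at 25 h they were -0.051 to 0.006 and -0.048 to 0.066. Whether replicate numbers pair the libraries was not tested. With the replicate number as a block, 25 of 25 NR4A values kept their call, with -0.83 for Nr4a2 in HL-1 at 28 h. Depth limits Nr4a3 most, with 123 reads in the 4 CM libraries at 28 h and 2 in all AML12 libraries. With the longest transcript as length, 15 of 22 levels per kb moved by more than the spread of their group. Scaling moved the median of all genes by at most 0.0469 (log2).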
